A study of Mus musculus with 4 samples.

Results

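The response of HDAC3 KO macrophages to LPS was described here from 2 lists of histone H4 acetylation peaks, 41956 peaks in untreated cells and 45589 in cells given lipopolysaccharide (LPS) at 100 ng/ml for 4 h. Peaks that overlapped by at least 1 bp were merged into regions, which gave 53205 regions on the mm9 mouse genome build. Merging the lists of all 4 libraries of the series gave 62522. The cells were bone marrow-derived macrophages of C57BL/6 mice on day 7 of differentiation, and both groups carried the HDAC3 -/- genotype. The other 2 libraries, untreated and LPS-treated cells of the HDAC3 +/- genotype labelled wild type (wt), served only for comparison. That genotype keeps 1 intact allele. How HDAC3 was deleted and how many mice went into a library are not given in the sources used here. Each group had 1 library, so every difference below is a difference between 2 libraries, with no spread between replicates and no p-value.

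Acetylation of histone H4 loosens the contact of the histone tail with DNA and is found at active promoters and enhancers. HDAC3 removes acetyl groups from histones as the catalytic part of the NCoR and SMRT corepressor complexes. LPS, from the outer membrane of Gram-negative bacteria, is sensed through the receptor TLR4 and sets off an inflammatory gene program in macrophages. Neither a genome nor a gene annotation of the mm9 build was used here, so regions are given by position, without gene names or sequence. For the same reason, neither the Hdac3 locus nor macrophage marker genes were used to check the labels.

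Read depth was unknown, since the lists give positions and a score for each peak but no reads. The authors' score was used only to place a peak within its own list, as a percentile from 0 (weakest) to 100 (strongest). The untreated list covered 36.4 Mb and the LPS list 50.4 Mb. A higher level per cell, more cells with the mark, deeper sequencing and a more efficient immunoprecipitation cannot be told apart in these files.

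More regions were called with LPS alone than in untreated cells alone. Of the 53205 regions, 24543 (46.1%) were called in both libraries and are termed shared. Another 18171 were called with LPS only (34.2%, exact 95% interval 33.7 to 34.6%), and 10491 in untreated cells only (19.7%, 19.4 to 20.1%). The intervals allow for counting error alone, as adjacent regions share signal. Shared regions held most of the acetylated sequence, with 73.1% of the bp covered in the LPS list and 84.0% of those in the untreated list. Their covered length was 30.6 Mb in untreated and 36.9 Mb in LPS-treated cells, 20.4% more. LPS-only regions added 13.6 Mb, and untreated-only regions accounted for 5.84 Mb.

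At shared regions the covered length was a little longer with LPS. The median was 1004 bp in untreated and 1200 bp in LPS-treated cells. The median log2 ratio (LPS over untreated) was 0.19, a factor of 1.14, with an interquartile range of -0.10 to 0.57. Covered length was greater with LPS at 16364 regions (66.7%) and smaller at 8149. It was at least 2-fold greater at 2964 regions (12.1% of the 24543 compared) and at least 2-fold smaller at 596 (2.43%). This split depends on scaling. The total covered length of the lists differed by 0.47 on the log2 scale, and after each list was divided by its total the numbers were 1332 greater and 2003 smaller. The median log2 ratio was then -0.28.

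**Figure D1:**
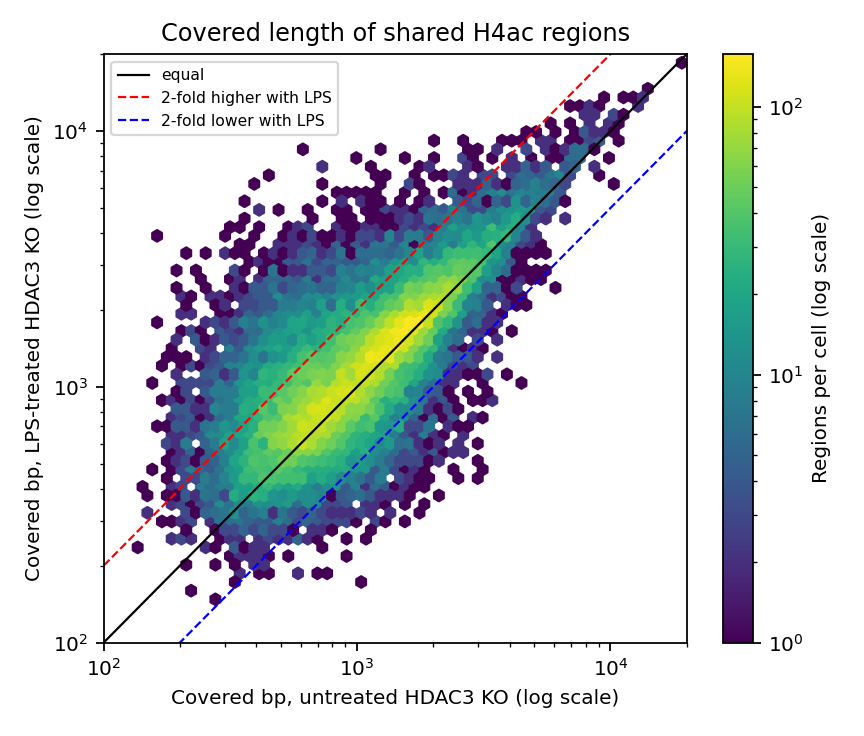
Covered bp in the untreated HDAC3 KO library (x axis, log scale) and the LPS-treated HDAC3 KO library (y axis, log scale) at the 24543 shared regions; color gives the number of regions per cell. More of the cloud lies above the red 2-fold line (2964 regions) than below the blue one (596).

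Longer calls with LPS were seen both at single peaks and where neighbouring peaks were joined. At 17803 shared regions (72.5%) each library had 1 peak. There the LPS peak reached beyond the untreated peak by a median of 38 bp at the left edge and 44 bp at the right edge. It reached beyond on both sides at 39.5% of these regions and lay inside on both sides at 15.4%. At 4150 regions (16.9%) 2 or more untreated peaks lay under 1 LPS peak, while the reverse, 1 untreated peak over 2 or more LPS peaks, was found at 1335 (5.44%). The 665 regions with 3 or more untreated peaks under 1 LPS peak covered a median of 2662 bp untreated and 3629 bp with LPS. An LPS peak that spans the gaps between untreated peaks gains their length, but it need not contain those peaks in full. Of the 4150 regions, 324 were at least 2-fold longer with LPS and 59 at least 2-fold shorter. At the 17803 regions with 1 peak each, these numbers were 2459 and 520. Over all 24543 shared regions the shares were 12.1 and 2.43%, larger than among the 4150. The median log2 ratio was 0.22 at the 4150 regions, 0.19 at the 17803 and 0.10 at the 1335 with the reverse pattern. Longer calls with LPS were thus not particular to joined peaks.

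The 5 regions with the largest gain in covered length were at percentile 98.0 or above with LPS, and 4 of them were below percentile 50 in untreated cells. At chromosome 6, 28811686 to 28820189, covered length was 595 bp in untreated cells, at percentile 13.4 of its list, and 8504 bp with LPS, at percentile 99.5. In wt the same span held 2457 bp untreated and 8259 bp with LPS. At chromosome 1, 84274747 to 84284111, it was 1958 and 9365 bp, and here the untreated call was already at percentile 94.9. The wt libraries held 3141 and 6339 bp there. Covered length in this region was thus greater with LPS in both genotypes, with a strong call before LPS. The percentile was higher with LPS as well, at 99.5 in HDAC3 KO, and in wt it was 87.4 untreated and 97.7 with LPS.

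At chromosome 15, 74784557 to 74792917, a pair of untreated peaks covering 1191 bp lay under 1 LPS peak of 8361 bp, and the wt values were 4755 and 8354 bp. At chromosome 3, 142156462 to 142163922, covered length was 738 bp untreated and 7461 bp with LPS (wt 1005 and 7213 bp). At chromosome 6, 91649857 to 91657377, it was 986 and 7521 bp. Untreated wt had no peak in that span, and LPS-treated wt covered 6565 bp. All 5 of these regions also covered more with LPS in wt.

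The largest losses in covered length were smaller than the largest gains. At chromosome 4, 136444247 to 136454796, covered length was 10326 bp in untreated cells and 6007 bp with LPS, in 2 and 4 peaks. The wt libraries covered 4247 and 1384 bp there. At chromosome 7, 20277109 to 20283178, it was 6070 bp at percentile 99.8 untreated and 2530 bp at percentile 43.5 with LPS. In wt the values were 2710 and 2869 bp.

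At chromosome 11, 119213131 to 119217501, covered length was 4371 bp untreated and 1047 bp with LPS (wt 1877 and 913 bp). At chromosome 15, 27630681 to 27634471, it was 3791 and 1091 bp (wt 2584 and 1155 bp). At chromosome 11, 117191643 to 117197334, it was 5659 and 2956 bp, and the wt values of 3532 and 3446 bp were close to each other. That last region kept a high rank, at percentile 98.7 untreated and 96.3 with LPS. It was the one loss of the 5 with little movement in rank.

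Ranks within the lists changed widely but with little net direction. The percentile of the highest score in a shared region had a median of 66.7 in the untreated and 67.7 in the LPS list, and the median difference per region was -0.60 points. At 10180 regions (41.5%) the lists differed by less than 10 points. The LPS rank was at least 25 points higher at 3673 regions (15.0%) and at least 25 points lower at 3040 (12.4%). Restricted to each list's 20000 strongest peaks, the balance went the other way, with 1826 higher and 2410 lower. The lists differ in length, so a difference in percentile is one of position and not of level. Ranked among the shared regions alone, the same 24543 on both sides, 3680 were higher and 3586 lower.

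**Figure D2:**
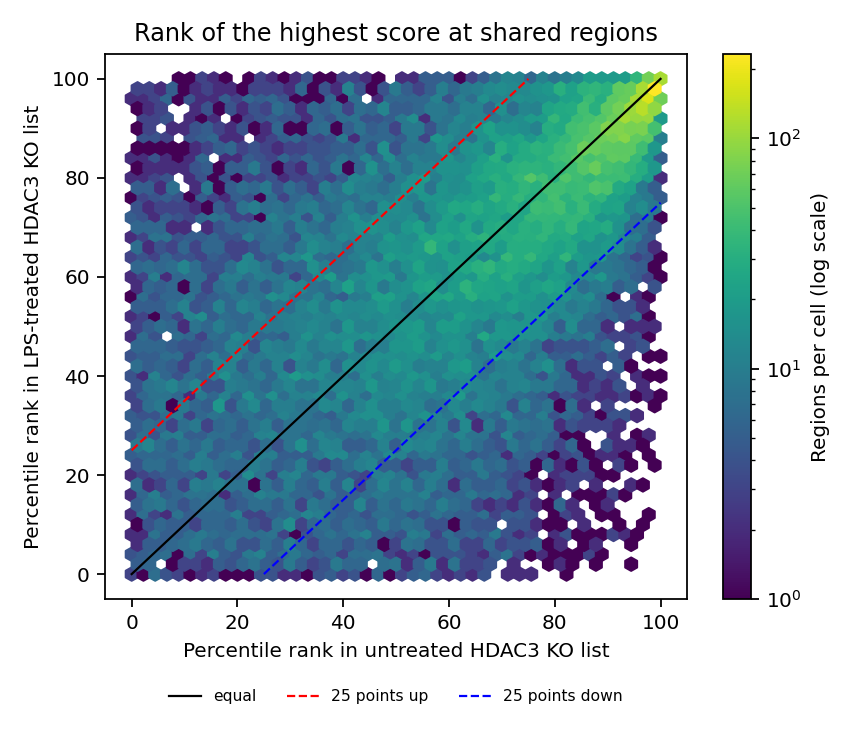
Percentile rank of the highest-scored peak of each shared region within the untreated (x axis) and the LPS-treated (y axis) HDAC3 KO list, for 24543 regions; color gives regions per cell on a log scale. Regions crowd near the top right corner, and 3673 lie beyond the red line (25 points up) against 3040 beyond the blue one (25 points down).

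Length and rank mostly moved together. Of the 2964 regions with at least 2-fold more covered bp, 1782 also had a rank at least 25 points higher and 22 a rank at least 25 points lower. Of the 596 with at least 2-fold less, 445 had a rank at least 25 points lower and 2 a rank at least 25 points higher. Across the 24543 regions the Spearman correlation of the log2 length ratio with the rank difference was 0.60. Both values of a region come from the same pair of libraries, so this correlation is a description.

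The largest differences in rank ran from the bottom of the untreated list to the top few percent of the LPS list. At chromosome 9, 63877732 to 63881621, the percentile was 0.45 untreated and 98.3 with LPS, and covered length was 543 and 3890 bp. At chromosome 16, 10842352 to 10847223, it was 1.18 and 98.9, with 429 and 4872 bp. In wt, this second region had no untreated peak and a peak at percentile 98.8 with LPS, while the first was at percentiles 48.1 and 79.8.

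A region at chromosome 14, 103407156 to 103409154, was at percentile 0.43 untreated and 97.0 with LPS (371 and 1999 bp). The regions at chromosome 1, 138580533 to 138582004 (0.26 and 96.0), and chromosome 8, 117920610 to 117923536 (1.16 and 96.9), complete the 5. All 5 ranked higher with LPS in wt too, or were called in wt with LPS alone. In untreated wt the 4 regions with a peak lay between percentiles 48.1 and 78.5. The regions were picked for their low place in the untreated HDAC3 KO list, so nothing is read from that contrast.

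In the opposite direction, the region at chromosome 9, 57485531 to 57488363, was at percentile 94.9 untreated and 2.36 with LPS, with 2833 and 893 bp, and neither wt library had a peak there. At chromosome 15, 58045536 to 58047511, the percentile was 94.0 untreated and 6.52 with LPS. At chromosome 9, 121545063 to 121546150, it was 94.4 and 7.51, although covered length hardly differed, at 1088 and 932 bp. At chromosome 16, 31029567 to 31030668, it was 98.0 and 11.2, and at chromosome 6, 99337624 to 99340262, 95.9 and 9.42. Of these 5 regions, 4 had a peak in untreated wt, and of those 4 only the one on chromosome 16 was also called in wt with LPS, at percentile 61.9.

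The strongest calls of each list were nearly all shared. In the LPS list 395 regions had a score of at least 3100, a value shared by 370 LPS peaks, and 382 of them were shared. In the untreated list 228 of these 382 were at percentile 90 or above and 27 below percentile 50. The median covered length of the 382 was 3360.5 bp untreated and 5559.5 bp with LPS, a median log2 ratio of 0.60, and 119 were at least 2-fold longer. In the top 1% of the untreated list, all 410 regions were shared, their median covered length was 3656 bp untreated and 3563 bp with LPS, and none was at least 2-fold longer. Of these 410, 352 were at percentile 90 or above in the LPS list and 4 were below percentile 50. Each set was chosen on its own side of the comparison, so nothing is read from the difference between them.

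The relation of length to strength depended on which wt list was used to order the regions. Neither list took part in defining the regions, but each shares its treatment with 1 side of the HDAC3 KO pair. By rank in untreated wt, the 1380 shared regions at percentile 0 to 25 had a median covered length of 657 bp untreated and 876.5 bp with LPS in HDAC3 KO, a median log2 ratio of 0.36. The 4732 above percentile 90 had 1744 and 1919 bp, a ratio of 0.10. Calls at least 2-fold longer with LPS made up 21.5 and 3.68% of these groups. By rank in LPS-treated wt the order of the median ratios was the opposite. The 1840 shared regions at percentile 0 to 25 had 776 and 861 bp, a ratio of 0.11, and the 3730 above percentile 90 had 1702.5 and 2258 bp, a ratio of 0.30. At least 2-fold longer calls made up 13.1 and 16.1% of these groups, but 12.1, 10.6 and 10.5% of the bands between them, with no steady order. At least 2-fold shorter calls made up 5.00 and 0.08% of the lowest and highest band. No trend of the LPS difference with strength is therefore read from these values.

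Regions called in 1 library only were narrower and weaker than shared ones. Shared regions had a median width of 1355 bp, LPS-only regions 618 bp and untreated-only regions 493 bp. Width is that of the merged span, which for a shared region joins peaks of both lists. Median covered length at shared regions was 1004 bp untreated and 1200 bp with LPS. A wide peak also meets the 1 bp overlap more easily, so width and class are not independent. The median percentile was 29.9 for LPS-only regions in their list and 24.8 for untreated-only regions in theirs, against 67.7 and 66.7 for shared regions. Yet the LPS-only class had a longer upper tail. It held 508 regions of 2 kb or more (2.80%) against 38 untreated-only regions (0.36%), and 330 regions above percentile 90 (1.82%) against 36 (0.34%). Above percentile 99 there were 14 LPS-only regions and no untreated-only region.

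The share of a list without a partner was far lower among its strong calls. In the LPS list 74.2% of regions at percentile 0 to 25 were LPS-only, 30.9% at percentile 50 to 75 and 7.40% above percentile 90. In the untreated list the shares were 63.7, 15.8 and 0.89%. The LPS-only share was higher than the untreated-only share in each of the 5 bands compared.

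**Figure D3:**
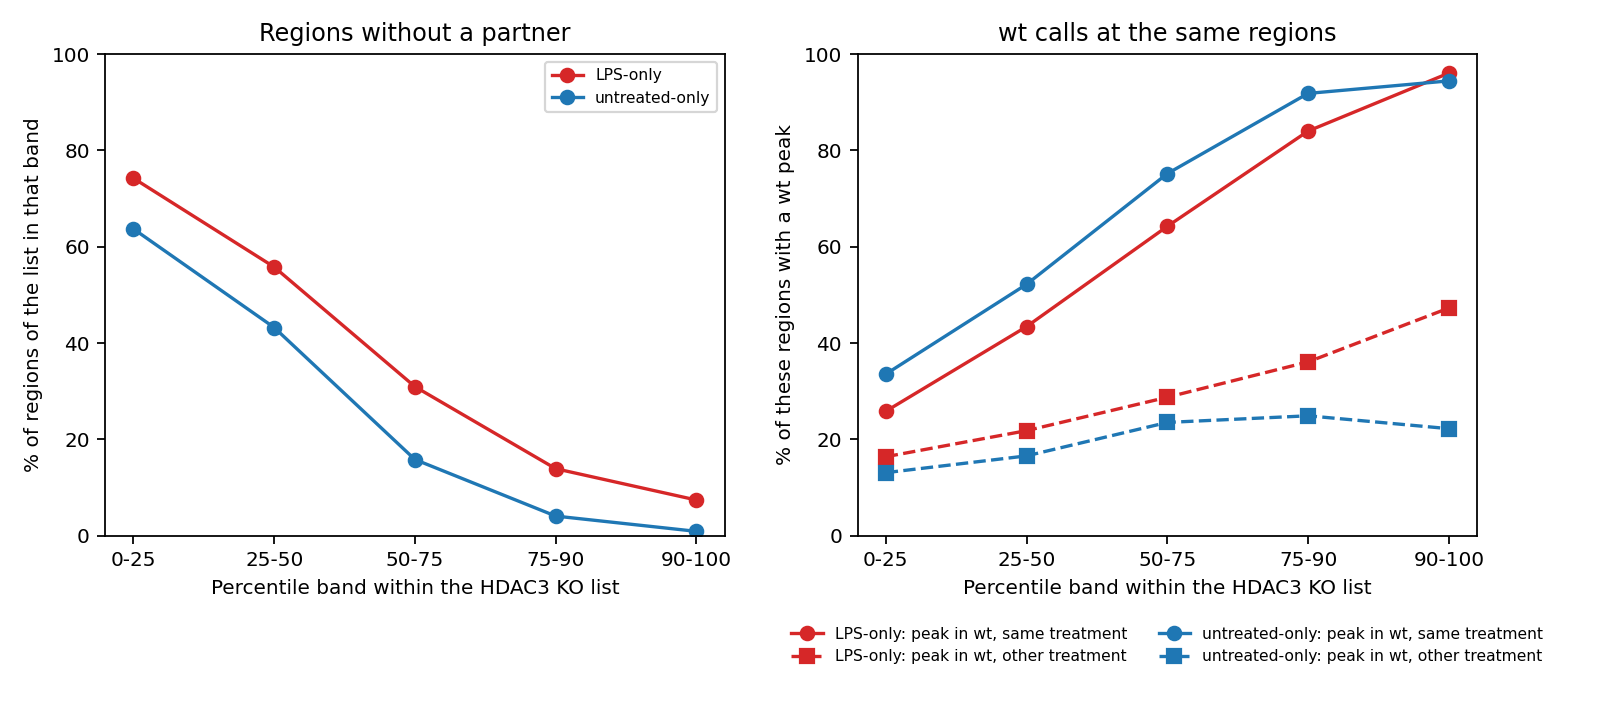
Left, the percent of the regions of each HDAC3 KO list that had no peak in the other HDAC3 KO list, by percentile band (x axis); right, the percent of those regions with a wt peak under the same treatment (solid) or the other treatment (dashed). Above percentile 90, 96.1% of LPS-only regions were called in wt with LPS and 47.3% in wt without it.

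In HDAC3 KO, LPS-only regions lay farther from shared regions than untreated-only regions did. The median distance to the nearest shared region was 7493 bp for LPS-only and 4971 bp for untreated-only regions. In the wt pair the order was reversed, with 5641.5 bp for LPS-only and 7252 bp for untreated-only regions. In each genotype the more numerous 1-list class lay farther away. For a shared region the nearest other shared region was a median of 3254.5 bp away. Within 1 kb of a shared region lay 4619 LPS-only (25.4%) and 3108 untreated-only regions (29.6%). More than 50 kb away lay 3066 LPS-only (16.9%) and 1269 untreated-only regions (12.1%). Distance went with width only weakly: LPS-only regions within 1 kb had a median width of 660 bp and those over 50 kb away 557 bp. Their median percentiles were 30.9 and 29.0.

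**Figure D4:**
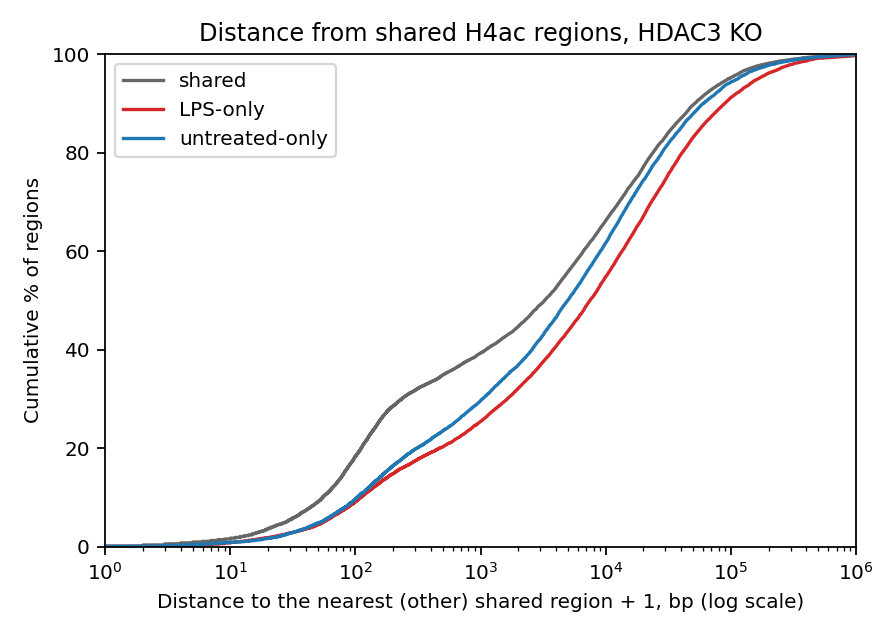
Cumulative percent of regions (y axis) by distance to the nearest shared region (x axis, bp + 1, log scale) for LPS-only and untreated-only regions, and to the nearest other shared region for shared ones. The LPS-only curve lies to the right, with a median of 7493 bp against 4971 bp for untreated-only and 3254.5 bp for shared regions.

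The strongest LPS-only regions more than 10 kb from any shared region were peaks of several kb. Those at chromosome 11, 82928864 to 82934117 (5254 bp), chromosome 16, 97682051 to 97687227 (5177 bp), and chromosome 7, 152174429 to 152177948 (3520 bp), were tied at percentile 99.5 of the LPS list. They were 36040, 67556 and 36742 bp from the nearest shared region. In wt each had a shorter untreated peak (630, 1258 and 423 bp) and a longer one with LPS (4661, 4708 and 2909 bp). The next, at chromosome 9, 61178638 to 61181777, covered 3140 bp in HDAC3 KO and 2834 bp in LPS-treated wt. The region at chromosome 2, 122480811 to 122484168, covered 3358 bp at percentile 98.8 and had no peak in either wt library.

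The widest LPS-only region, 8019 bp at chromosome 11, 83467967 to 83475985, lay 27 bp from a shared region. The edge of a shared region can belong to a peak of either list, so the nearest untreated peak may lie farther away. Another LPS-only region on the same chromosome, 83555908 to 83563017, was 7110 bp wide. The third, at chromosome 12, 27146106 to 27152803, was 6698 bp wide and 57 bp from a shared region. LPS-treated wt covered 7779, 6299 and 5196 bp of the 3 spans, and untreated wt 1606, 536 and 0 bp.

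Of the untreated-only regions 10 to 50 kb from a shared one, 49.3% had a peak in untreated wt, and of those over 50 kb away 48.9%. The share was similar nearer by, at 47.2% within 1 kb and 43.9% at 1 to 10 kb. Over all 10491 untreated-only regions it was 46.9%. The strongest at more than 10 kb lay at chromosome 8, 13500532 to 13503897, with 3366 bp in HDAC3 KO at percentile 97.1 and 3111 bp in untreated wt. It was 89299 bp from the nearest shared region. The others were chromosome 1, 88931051 to 88933696 (2646 bp), chromosome 6, 117380728 to 117382999 (2272 bp), chromosome 2, 29594030 to 29595996 (1967 bp), and chromosome 16, 18411011 to 18414063 (3053 bp). All 5 had a peak in untreated wt, covering 1763 to 3111 bp. With LPS, wt had a peak in the chromosome 6 span (533 bp) and the chromosome 2 span (1457 bp) and none in the other 3. The widest untreated-only region, at chromosome 5, 139845549 to 139849593, measured 4045 bp and lay 3051 bp from a shared region. The next, at chromosome 7, 139877351 to 139880826, measured 3476 bp.

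LPS-only regions occurred in longer runs along the chromosomes than untreated-only regions. Runs of 5 or more consecutive regions of the same class held 5942 LPS-only regions (32.7%) in 802 runs, and 1146 untreated-only regions (10.9%) in 179 runs. LPS-only regions were also the more numerous class. The longest run held 50 LPS-only regions over 478 kb at chromosome 12, 120085245 to 120563285, covering 37191 bp, and 18 of the 50 were called in wt with LPS. A denser run of 38 regions over 132 kb lay at chromosome 16, 84585437 to 84717857, covering 38423 bp. There 28 of 38 were called in wt with LPS and 2 without it. The third, 32 regions at chromosome 16, 64907532 to 65450723, was made of weak calls, with 3 of 32 at or above the median score of the list. Over all 18171 LPS-only regions, 42.7% were called in wt with LPS, 21.9% in wt without it, and 25.1% reached that median score.

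Of the untreated-only runs, the longest held 20 regions over 223 kb at chromosome 16, 23180421 to 23403429, and 14 of the 20 had a peak in untreated wt but none in LPS-treated wt. The next held 16 regions at chromosome 14, 104184399 to 104427087, with 9 called in untreated wt and none in LPS-treated wt. The third held 14 regions at chromosome 16, 30948699 to 31024591, with 10 called in wt before LPS and 4 after it. Over all 10491 untreated-only regions, 46.9% were called in untreated wt and 15.9% in LPS-treated wt.

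Domains of this kind also stood out when covered bp was summed over windows of 50 kb. Of 15647 windows with a peak in either HDAC3 KO library, 10260 covered more with LPS and 5378 less. The gains summed to 18.8 Mb and the losses to 4.77 Mb. Window lengths were not scaled to the list totals, which were 36.4 Mb untreated and 50.4 Mb with LPS. Windows gaining at least 5 kb numbered 888, and those losing as much 89. The 888 windows held 39.1% of the summed gain, and in 84 of them untreated cells had no peak at all. From 10 kb the numbers were 191 and 3.

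The window with the most LPS-only regions, 20 beside 5 shared ones, was chromosome 17, 18000001 to 18050000, where 17 of the 20 had a peak in LPS-treated wt. Next came chromosome 2, 30750001 to 30800000, with 19 LPS-only and 2 shared regions. Covered length there was 5.64 kb untreated and 33.0 kb with LPS in HDAC3 KO, and 4.97 and 21.3 kb in wt. The third, chromosome 10, 18650001 to 18700000, had 17 LPS-only regions, of which 3 had a peak in LPS-treated wt. Over all LPS-only regions 42.7% had such a peak. In the plot of called peaks in these windows, the LPS calls of HDAC3 KO form near-continuous blocks broken by short gaps, so the number of LPS-only regions there counts pieces of longer blocks.

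**Figure D5:**
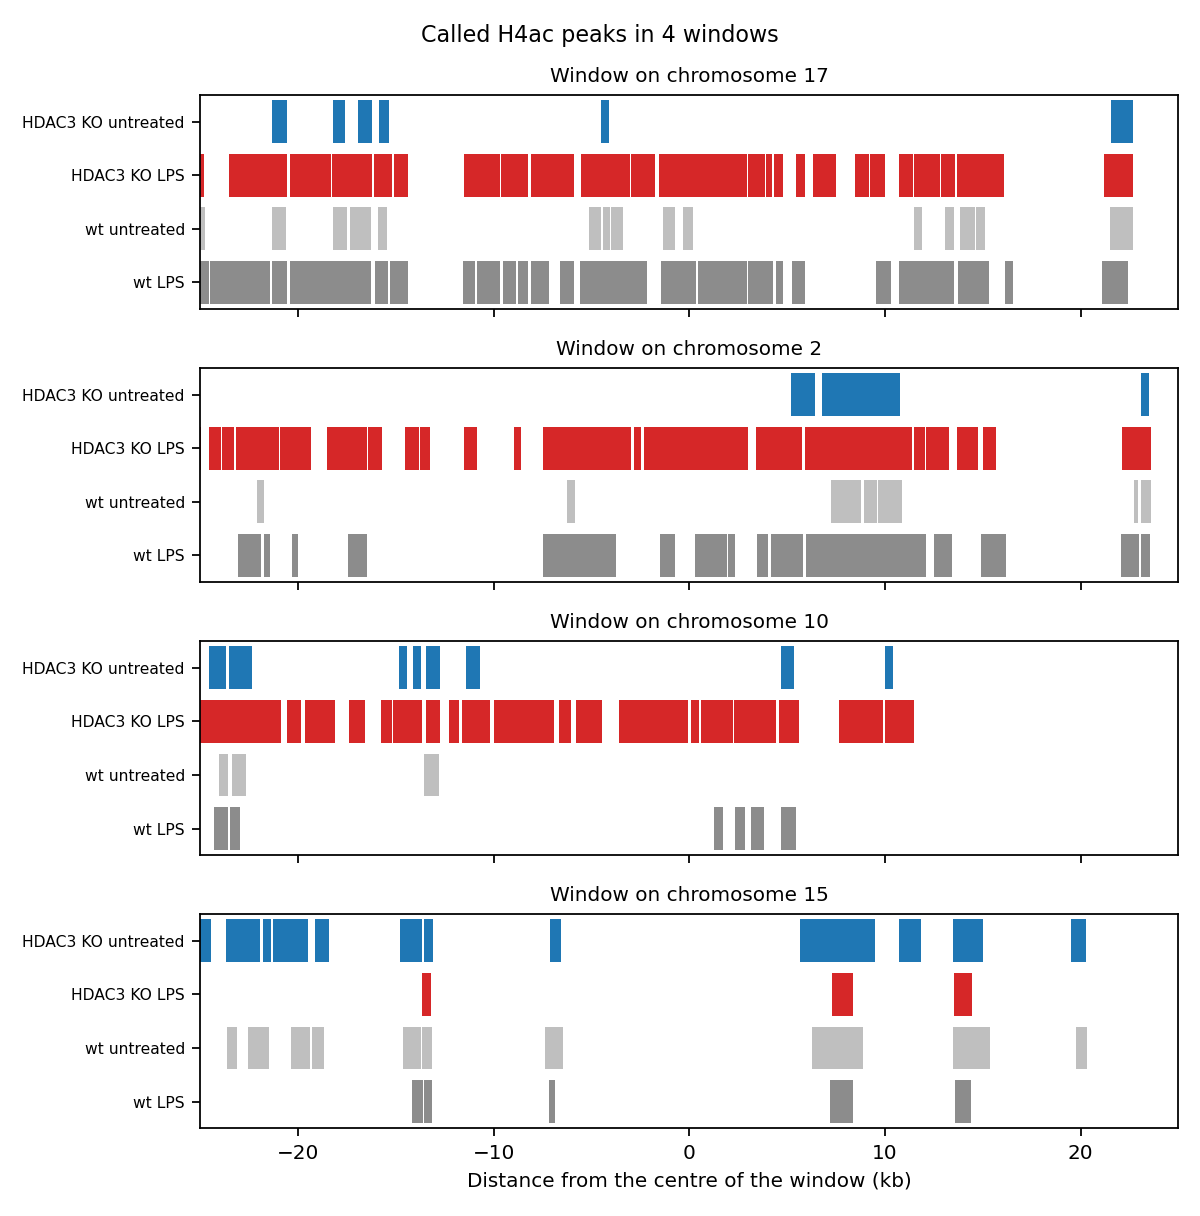
Called H4ac peaks (bars) in 4 windows of 50 kb, by distance from the window centre in kb, in the 4 libraries. In the windows on chromosomes 17, 2 and 10, with 20, 19 and 17 LPS-only regions, LPS-treated HDAC3 KO (red) covers far more than untreated (blue), and in the chromosome 15 window it covers less.

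Further windows were named after their values were seen, by change in covered length. At chromosome 11, 86400001 to 86450000, peaks covered 11.4 kb untreated and 39.4 kb with LPS in HDAC3 KO, and 9.80 and 27.1 kb in wt. At chromosome 14, 103400001 to 103450000, they covered 5.10 and 31.2 kb (wt 10.8 and 29.6 kb). At chromosome 15, 74750001 to 74800000, it was 3.14 and 28.6 kb (wt 19.2 and 28.7 kb). The windows were picked for their gain in HDAC3 KO, which favours low untreated values there, so no genotype difference in untreated cells is read from them.

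Windows with the most untreated-only regions held 11 each. At chromosome 9, 106200001 to 106250000, covered length was 13.0 kb untreated and 4.68 kb with LPS (wt 3.52 and 2.29 kb). At chromosome 18, 61250001 to 61300000, it was 20.5 and 14.0 kb (wt 9.95 and 10.7 kb). The window at chromosome 2, 167750001 to 167800000, also held 11, of which 4 had a peak in untreated wt, against 46.9% of all untreated-only regions. Among windows named after the fact, chromosome 15, 27600001 to 27650000, went from 14.5 kb untreated to 2.47 kb with LPS, and in wt from 10.6 to 3.24 kb. At chromosome 7, 20250001 to 20300000, the values were 23.3 and 10.8 kb in HDAC3 KO and 11.6 and 10.1 kb in wt. At chromosome 10, 79400001 to 79450000, they were 12.9 and 2.99 kb, and 6.26 and 3.74 kb. These windows were picked for more calls in untreated than in LPS-treated HDAC3 KO, so no difference between genotypes is read from them.

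The wt libraries, which took no part in the classes, were read over the span of each class. Of the 18171 LPS-only regions, 42.7% (42.0 to 43.4%) were also called in wt with LPS and 21.9% (21.3 to 22.6%) in wt without it. In wt, 28.2% were called with LPS and not without it, 7.43% the other way round, and 49.8% in neither library. Of the 10491 untreated-only regions, 46.9% (45.9 to 47.8%) had a peak in untreated wt and 15.9% (15.2 to 16.7%) in LPS-treated wt. No wt peak was found in 49.3% of them. Among shared regions 76.9% had a peak in both wt libraries and 7.15% in neither.

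These shares followed rank, and width rose with rank too. From percentile 0 to 25 to above percentile 90, median width went from 467 to 2425.5 bp for LPS-only regions. For untreated-only regions it went from 404 to 1887.5 bp. A wider span can meet more wt peaks, and rank and width were not separated. Of LPS-only regions at percentile 0 to 25, 25.8% were called in wt with LPS and 16.4% without it. For those above percentile 90 the shares were 96.1 and 47.3%. Of untreated-only regions at percentile 75 to 90, 91.8% had a peak in untreated and 24.9% in LPS-treated wt. Above percentile 90, 94.4% of the untreated-only regions had an untreated wt peak, but only 36 regions stand behind that share.

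Shared regions whose covered length differed 2-fold in HDAC3 KO differed the same way in wt on average, but less. Of the 2964 with at least 2-fold more, 2021 had a peak in both wt libraries. Median wt length over these was 843 bp untreated and 1290 bp with LPS, a median log2 ratio of 0.57, and 641 (31.7%) were at least 2-fold greater in wt as well. A further 396 of the 2964 (13.4%) had a peak in LPS-treated wt alone and 234 (7.89%) in untreated wt alone. Of the 596 with at least 2-fold less, 314 had both wt peaks, with medians of 1045.5 bp untreated and 675.5 bp with LPS. Their median log2 ratio was -0.49, and in wt 94 (29.9%) were at least 2-fold smaller and 5 at least 2-fold greater. Another 205 (34.4%) had a peak in untreated wt alone and 12 (2.01%) in LPS-treated wt alone. Over all 18875 shared regions with both wt peaks the wt ratio was 0.06, with 6.98% at least 2-fold greater and 5.14% at least 2-fold smaller. Of all 24543 shared regions, 4.45% had a peak in LPS-treated wt alone and 11.5% in untreated wt alone. Members were chosen on their HDAC3 KO values, so a smaller value in wt does not show a smaller response.

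The wt pair put through the same steps gave 54634 regions, of which 24755 were shared. There 12546 were LPS-only (23.0%) and 17333 untreated-only (31.7%), the opposite order to HDAC3 KO. The wt lists held 48706 untreated and 39550 LPS peaks, so in each genotype the list with more peaks had the larger 1-list class. Covered length was 35.4 Mb in untreated and 37.4 Mb in LPS-treated wt. At the shared regions of wt the median log2 ratio of covered length was 0.10, with 2349 at least 2-fold greater (9.49%) and 1129 at least 2-fold smaller (4.56%). With LPS 2729 regions (11.0%) ranked at least 25 points higher and 4792 (19.4%) lower. With 1 library per group, the differences between the genotypes were not tested.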

How the data were processed

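Chromatin immunoprecipitation with an antibody against acetylated histone H4 was followed by sequencing in 4 libraries, 1 per group. Bowtie and the mm9 build were named, per the submitters' processing notes. MACS was run on every ChIP library with input as its control, per the file headers. Versions, settings and the input used are not given in the sources used here. The score of each peak is the authors' own value, as deposited, and its scale is not stated.

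Peaks were merged where they overlapped by at least 1 bp. Covered bp is the summed length of a list's peaks within a region. A percentile is the mean rank of a score among all peaks of its list. Distance is the gap to the nearest shared region. With 1 library per group no test was possible. A difference counted from 2-fold in covered bp or 25 percentile points. Intervals are exact (Clopper-Pearson, 95%). Coordinates are counted from 1.

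Named regions were the 5 shared ones with the largest gain and loss of covered bp and rise and fall in rank, the 5 highest-scored of each 1-list class more than 10 kb from a shared region, the 3 widest and the 3 longest runs of each class, and the 3 windows of 50 kb with most regions of each class. The members, rules and alternatives were chosen with earlier results of these data known. The merging counts were checked on simulated lists that gave 23951 regions, and the distances on a subset of those regions. In these checks 6 of 6 values were recovered. Gene lists planned for an mm9 annotation were not run. Computations used scipy 1.17.1, pandas 2.3.3 and numpy 2.4.6 under Python 3.11.15, and plots matplotlib 3.10.9.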

Additional observations from a re-analysis of the deposited data

Results flagged for a closer look

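In 3 measures the LPS difference had opposite signs in the genotypes. With 1 library per group, the difference between genotypes was not tested in any of them. The number of LPS-only minus untreated-only regions was 7680 in HDAC3 KO and -4787 in wt. Its sign went with the number of peaks, which was higher with LPS in HDAC3 KO (45589 against 41956) and lower in wt (39550 against 48706). The number of shared regions at least 25 percentile points higher minus those at least 25 points lower with LPS was 633 in HDAC3 KO and -2063 in wt. The HDAC3 KO sign depended on the setting. With each list's 20000 strongest peaks it was negative, with 1826 regions higher and 2410 lower. In the other settings compared it stayed positive, though barely when regions were ranked among shared regions alone (3680 higher and 3586 lower). The median rank difference was negative in both genotypes, at -0.60 points in HDAC3 KO and -3.96 in wt. The median distance to the nearest shared region of LPS-only minus untreated-only regions was 2522 bp in HDAC3 KO and -1610.5 bp in wt. In each genotype the more numerous 1-list class lay farther away.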

How the results depend on the processing

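No paired analysis was possible because each group had 1 library, and for the same reason no library could be left out. Over 75 alternative values, 30 stayed close to the value reported, 43 moved and 2 changed sign. A count was close if within 1.5-fold, and a median if inside the counting-error interval of the reported median. That interval is narrow, so small shifts of a median counted as moved. With peaks within 500 bp merged there were 10229 LPS-only and 6341 untreated-only regions, 920 shared regions at least 2-fold shorter, a median log2 ratio of 0.20 and a median rank difference of -0.98 points. Median widths were then 683 and 517 bp and median distances 14162 and 10299 bp for LPS-only and untreated-only regions. Keeping only peaks that reached the median score of their list gave 8135 LPS-only, 4914 untreated-only and 13772 shared regions, of which 1641 were 2-fold longer and 249 shorter, with a median log2 ratio of 0.21. Widths were 1124 and 863 bp, percentiles 31.9 and 26.2 and distances 15360 and 12736 bp. Restricted to each list's 20000 strongest peaks, the region numbers were 6651, 5268 and 12652, with 1549 longer and 213 shorter, a median log2 ratio of 0.21, 1826 regions higher in rank and a median rank difference of -3.67 points. Widths were 1235 and 893 bp, percentiles 33.15 and 27.9 and distances 16287 and 14527.5 bp. Fewer peaks enter the last 2 settings by construction. Dividing covered bp by each list's total gave 1332 longer and 2003 shorter regions and a median log2 ratio of -0.28. Centring on the median of the shared regions, added after seeing the data, gave 2152 longer and 988 shorter. From 1.5-fold, 6019 regions were longer and 1757 shorter. From 10 percentile points, 7253 ranked higher and 7110 lower. Ranking among shared regions alone gave a median difference of -1.56 points, and a score averaged over the peaks of a region gave 0.027 (interval -0.21 to 0.27). LPS-only regions outnumbered untreated-only regions, and were wider and farther from shared regions, in each of these settings where they were compared. Depth is unknown and limits every count of calls.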

Other observations

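Covered length was greater with LPS on all 20 chromosomes with placed sequence and peaks in HDAC3 KO, by 25.9% on chromosome 7 to 60.1% on chromosome 16. The lengths were not scaled to the list totals, 36.4 Mb untreated and 50.4 Mb with LPS, so a greater length on most chromosomes follows from these totals. The LPS-only share was lowest and highest on the same chromosomes, at 28.8% on chromosome 7 and 41.6% (interval 39.5 to 43.8%) on chromosome 16. The untreated-only share ranged from 16.3% on chromosome 19 to 22.8% on chromosome 15. The median log2 ratio at shared regions varied little, from 0.16 to 0.22. In wt the LPS-only share was also lowest on chromosome 7, at 18.9%. It was highest on chromosome X, at 30.1%, with 28.5% on chromosome 16, where covered length was 21.3% greater with LPS. Regions of a chromosome are not independent, and no test was made.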
